A study of Mus musculus with 6 samples.

Results

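Heterotrimeric G proteins carry signals from seven-helix receptors into the cell. An α subunit (Gα) binds GDP and a βγ dimer (Gβ, Gγ) at rest, and an active receptor makes it exchange GDP for GTP, after which Gα and the dimer act on enzymes and channels. RGS proteins shorten the signal by speeding up GTP hydrolysis on Gα. In the embryonic and postnatal brain these proteins relay, among others, lysophospholipid, purine, endothelin and adenosine signals to neural progenitors and astrocytes. Members were the table rows whose gene symbol matched a set pattern of Gα and Gβ names, or began with Gng or Rgs and a digit. This gave 46 of 14327 genes, with 14 Gα, 5 Gβ, 9 Gγ and 16 RGS genes and 2 genes for proteins that anchor RGS proteins. Symbols outside the pattern, such as Rgsl1, were not members. The rule reads symbols only and uses no measured value.

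The values came from RNA sequencing of neurospheres, free-floating cultures in which neural stem and progenitor cells divide under EGF and bFGF, here with B27 and N2 supplements. The cells were taken from mouse hippocampus at postnatal day 0. Of the 6 libraries, 3 were labelled cKO, from mice with a conditional knockout of Slc22a17, the lipocalin 2 receptor, and 3 were labelled WT. The labels used here name neither the Cre driver nor the strain, and nothing says whether libraries of a group came from separate animals or cultures. The p-values therefore cover only library-to-library spread, part or all of which may be technical.

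Values are FPKM, fragment numbers corrected for transcript length and library total, so that levels can be compared between genes. The FPKM table gives no read totals, and a search of the steps between low values gave only rough depths of 16900000 to 17500000 fragments per library. Slc22a17 was at 164, 166 and 187 FPKM in cKO replicates 1 to 3, against 181, 169 and 204 FPKM in WT, a level of 93.4% of WT with a 95% interval of 81.6% to 107% in limma (log2 fold change -0.097). The log2 fold change was -0.023 without WT replicate 3, -0.24 against WT replicate 3 alone and -0.45 with a Y-linked covariate, the libraries' Ddx3y plus Eif2s3y level (limma unadjusted p = 0.0299, adjusted p = 0.921). The transcript was thus present in every library, and every difference below is one between libraries by their labels. The Y-linked genes Ddx3y and Eif2s3y summed to 50.5, 43.8 and 51.2 FPKM in cKO replicates 1 to 3, against 0.10, 0.07 and 25.9 FPKM in WT replicates 1 to 3, so that WT replicate 3 stood apart from the other 2 WT libraries and sex and group cannot be told apart. All 8 neural stem markers, Nes, Sox2, Vim and Fabp7 among them, had a mean of at least 1 FPKM, as did all 10 astrocyte and all 8 oligodendrocyte lineage markers. In contrast, 5 of 7 neuronal markers, all 4 endothelial markers and 6 of 7 mural markers in the table averaged under 1 FPKM. The neural stem markers summed to 3529 to 3836 FPKM in cKO and 3828 to 4030 FPKM in WT, with 2 of 8 means higher in cKO.

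The sequences that follow show what sets the Gα and Gγ members apart at their functional ends. The last residues of Gα contact the receptor and decide much of which receptors it serves. In most Gi/o proteins the fourth residue from the end is a cysteine that pertussis toxin modifies, which cuts the protein off from its receptor. Below are the last 30 coding bases before the stop codon, 5′ to 3′, from GENCODE M21 transcripts on GRCm38, with that codon in capitals. Gnao1 is shown in 2 full-length splice forms, each of 1062 coding bases, whose ends differ. Shorter coding models of the gene are not shown.
Gnao1, distal end: gccaacaatctccggggcTGCggcttgtac
Gnao1, proximal end: gccaaaaacctacggggcTGTggactctac
Gnai1: aagaataacctaaaagacTGTggtctcttc
Gnai2: aagaacaacctgaaggacTGTggcctcttc
Gnai3: aaaaacaacttaaaggaaTGTgggctttat
Gnaz: cagaacaatctcaagtacATCggcctttgc
Gnaq: cagctgaacctgaaggagTACaatctggtc
Gnas: cgcatgcatctccgccaaTACgagctgctc
Gna12: caggagaacctgaaagacATCatgctgcag

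The capitals read TGC or TGT, the cysteine codons, in both forms of Gnao1 and in Gnai1, Gnai2 and Gnai3, and another codon in Gnaz, Gnaq, Gnas and Gna12. The 2 ends of Gnao1 lie at chr8:93967023-93967052 and chr8:93956220-93956249 on the plus strand and share 23 of 30 bases, and the files' single value for Gnao1 does not separate the forms. The distal end shares 18 of 30 bases with Gnai2.

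Gγ proteins end in a cysteine-led box that receives a lipid anchor. A leucine at the last position directs the longer geranylgeranyl group, and a serine the shorter farnesyl group. The last 30 coding bases are shown with the codons of the box in capitals.
Gng5: ttcagaccccagaaagtcTGCTCCTTTTTG
Gng7: ttcaaagacaaaaagcctTGCATAATTCTC
Gng10: ttccgggagcccaggtccTGTGCTCTACTT
Gng11: ttcaaagaaaagggcagcTGTGTCATTTCA
Gng12: ttcaaggataagaagaccTGCATCATCTTA

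The box ends on a leucine codon (TTG, CTC, CTT or TTA) in Gng5, Gng7, Gng10 and Gng12, and on a serine codon (TCA) in Gng11. Of 7 tested Gγ genes, Gng7 and Gng11 had a limma unadjusted p under 0.05, in opposite directions (28.6%, against 12.3% of all tested genes). Both are described below. The other genes shown, which also end on a leucine codon, had log2 fold changes of -0.11 (Gng5), 0.0094 (Gng10) and 0.069 (Gng12).

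The comparison asks whether hippocampal neurospheres labelled cKO differ from WT in the transcripts of this signalling system. None of the 34 members with a mean of at least 1 FPKM passed an adjusted p of 0.05 (limma on log2(FPKM + 1), two-sided, Benjamini-Hochberg over 11596 tested genes), where 0.0259% of all tested genes passed. At an unadjusted p under 0.05 there were 4 members, Gnao1 and Gng7 with higher and Gng11 and Rgs10 with lower means in the libraries labelled cKO, or 11.8% of the 34, against 12.3% of all tested genes (4.44% higher and 7.82% lower). The cKO and WT values of Gnao1, Gna12, Gng7 and Rgs10 did not overlap, again 11.8% of the members, against 17.2% of all tested genes. Of these, cKO lay above WT for 3 members, against 7.07% of all tested genes, and below WT for 1, against 10.2%. The members' median log2 fold change was -0.018, beside -0.015 for all tested genes, with 16 values positive and 18 negative. With library weights limma called 1 member, Gnao1, or 1 of 34, where 129 of all tested genes (1.11%) passed. The other 12 members, all under 1 FPKM on average, were not tested.

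**Figure D1:**
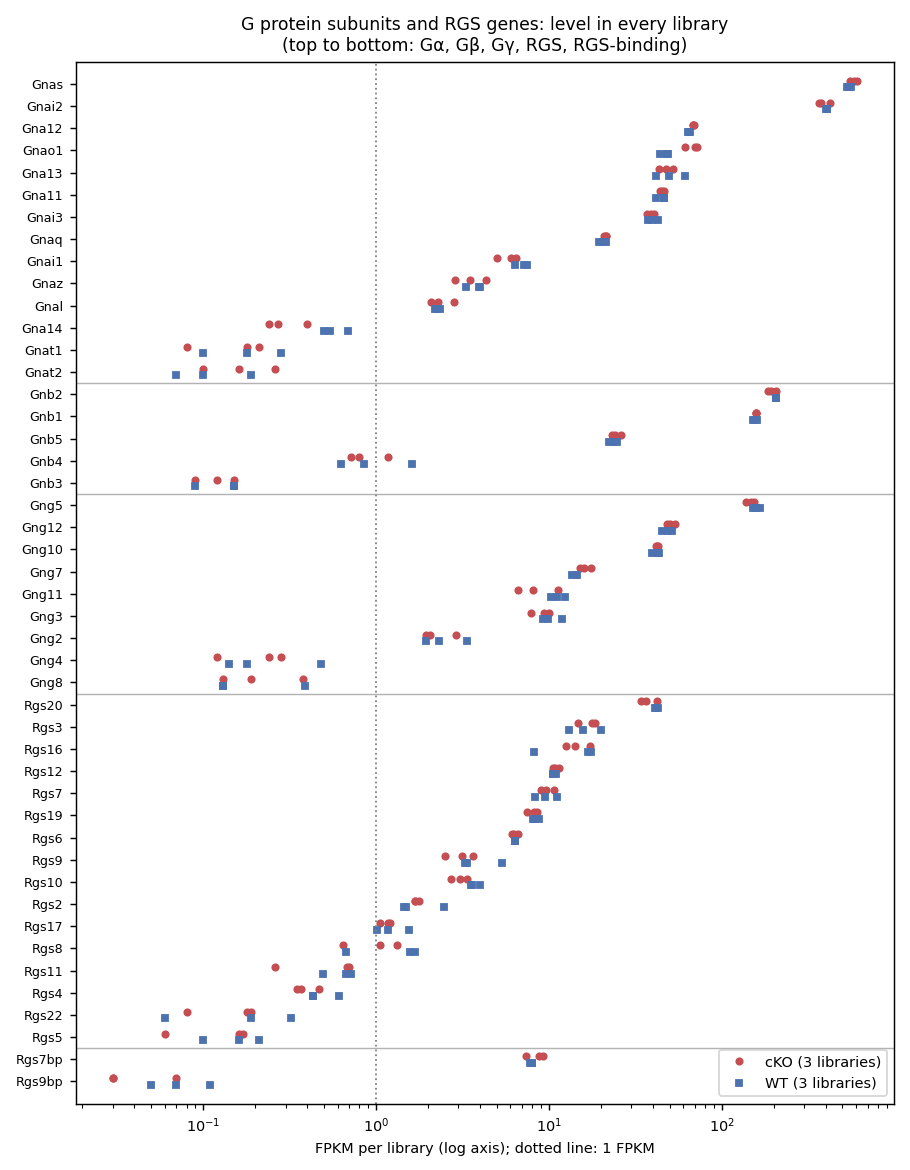
FPKM (log axis) of all 46 members in each library, with cKO libraries as circles and WT libraries as squares, ordered by level within Gα, Gβ, Gγ, RGS and RGS-binding genes from top to bottom; the dotted line marks 1 FPKM. Gnas and Gnai2 lie farthest right, and the circles of Gnao1 lie to the right of its squares.

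Gnao1 showed the lowest p and the log2 fold change farthest from 0 of all tested members. It encodes Gαo, the most abundant Gα of brain, which couples receptors to ion channels and is found in neurons and astrocytes. Gnao1 (gene identifier 14681, chr8:93810153-93969388 in GRCm38) was at 61.8, 71.96 and 69.7 FPKM in cKO replicates 1 to 3, against 48.2, 43.9 and 48.8 FPKM in WT replicates 1 to 3. All libraries labelled cKO lay above all WT libraries, and the gap between the lowest cKO and the highest WT library was wider than the range within either group. The means were 67.8 ± 5.35 FPKM in cKO and 47.0 ± 2.64 FPKM in WT (SD, n = 3 each), 1.44 times the WT mean, with a log2 fold change of 0.52 (95% interval 0.35 to 0.69; limma, unadjusted p = 8.31e-05, adjusted p = 0.103).

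The difference in Gnao1 missed the threshold, as it did in 17 of 18 alternatives. With library weights it passed (log2 fold change 0.51, limma adjusted p = 0.0161). The log2 fold change stayed between 0.47 and 0.58 when any single library was left out, with adjusted p-values of 0.0846 to 0.472 in limma. WT replicate 3, whose Y-linked level was 53% of the cKO mean, was at 48.8 FPKM. WT replicate 1, whose Y-linked level was 0.21% of that mean, was at 48.2 FPKM. Sex and group cannot be told apart for this difference. The log2 fold change was 0.46 against WT replicate 3 alone and 0.45 with the Y-linked covariate, with limma adjusted p-values of 0.999 and 0.921.

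Marker transcripts of other cell states differed between the same libraries. The summed level of 10 astrocyte markers was 6049 to 6440 FPKM in cKO and 4696 to 5981 FPKM in WT, with 7 of 10 means higher in cKO and none under 1 FPKM. Of the 10, 5 had a limma unadjusted p under 0.05, all higher in cKO (50.0%, against 12.3% of all tested genes). The groups of 4 did not overlap (40.0%, against 17.2%). Gjb6 averaged 22.5 FPKM in cKO and 13.6 FPKM in WT, and Sparcl1 757 and 526 FPKM (limma unadjusted p = 6.01e-05 and 0.00136). Gfap, the largest part of the sum, averaged 2442 and 2281 FPKM with overlapping groups, and 3 means were lower in cKO. The summed level of 7 neuronal markers overlapped, at 77.7 to 92.0 FPKM in cKO and 78.3 to 84.3 FPKM in WT, most of it from Map2. Of the 7 means 5 were higher in cKO, Dcx, Stmn2, Rbfox3, Snap25 and Syt1 averaged under 1 FPKM, and Tubb3 averaged 5.15 FPKM in cKO and 4.02 FPKM in WT with groups that did not overlap (limma unadjusted p = 0.0135). The 8 cycling markers summed to 147 to 204 FPKM in cKO and 214 to 270 FPKM in WT, with all 8 means lower in cKO. All 8 had a limma unadjusted p under 0.05, where 12.3% of all tested genes did, and none passed the adjusted threshold. The groups of 6 of the 8 did not overlap, where those of 17.2% of all tested genes did not. By both counts the cycling list differed more uniformly than the astrocyte list. The 8 oligodendrocyte lineage markers summed to 1201 to 1465 FPKM in cKO and 1247 to 1715 FPKM in WT, with 6 of 8 means lower in cKO. Of these, the myelin genes Mog and Mbp averaged 1.79 and 38.8 FPKM in cKO and 2.80 and 60.7 FPKM in WT (limma unadjusted p = 0.0170 and 0.0239). The 2 with higher means in cKO, Pdgfra and Cspg4, averaged 9.28 and 8.27 FPKM in cKO and 7.70 and 7.58 FPKM in WT (limma unadjusted p = 0.0973 and 0.717). The 4 ependymal markers in the table summed to 26.2 to 32.8 FPKM in cKO and 32.8 to 35.7 FPKM in WT, with all 4 means lower in cKO, and Rarres2 among them averaged 2.80 FPKM in cKO and 4.61 FPKM in WT (limma unadjusted p = 0.00160). None of the markers named here passed the adjusted threshold. The part of these markers in the difference in Gnao1 was not tested. In bulk RNA, fewer cells of a type and less RNA per cell cannot be told apart.

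**Figure D2:**
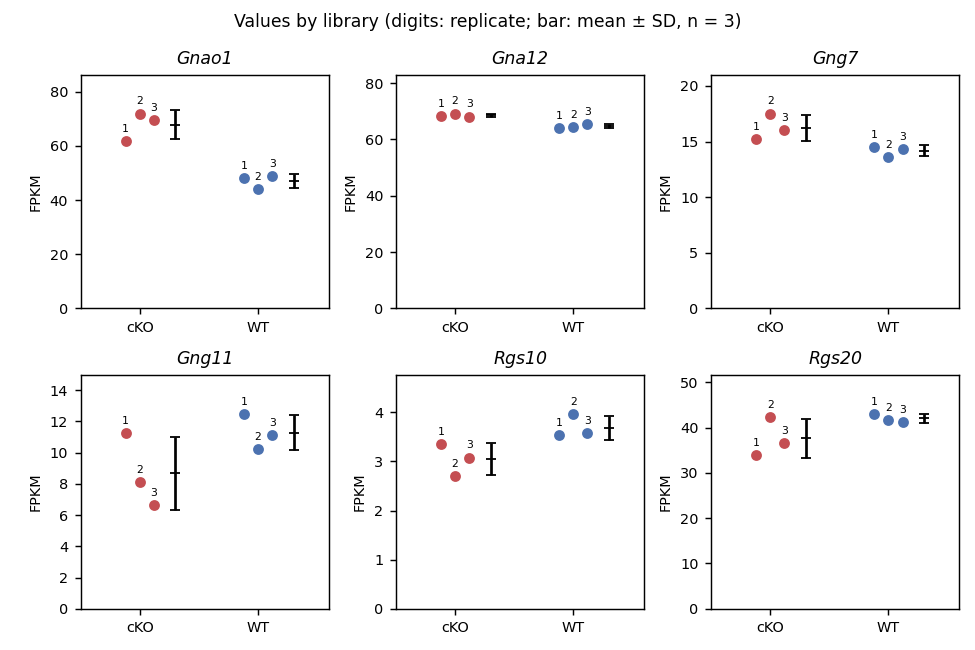
FPKM by library for Gnao1, Gna12, Gng7, Gng11, Rgs10 and Rgs20, with cKO left and WT right, replicate numbers above the points, and mean ± SD (n = 3) at the side of each group. The groups are apart for Gnao1, Gna12, Gng7 and Rgs10 and overlap for Gng11 and Rgs20.

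The remaining inhibitory Gα genes did not share this direction. Gnai2, which encodes the main Gαi protein outside neurons and inhibits adenylyl cyclase, was the second most abundant member, at 364, 423 and 375 FPKM in cKO replicates 1 to 3, against 401, 406 and 406 FPKM in WT replicates 1 to 3. The WT values lay within 1 narrow band inside the wider cKO range (log2 fold change -0.063, 95% interval -0.23 to 0.11, limma adjusted p = 0.796; its alternatives ran from -0.13 to -0.0020). Gnai3, its close relative, averaged 38.7 ± 1.73 FPKM in cKO and 40.0 ± 2.77 FPKM in WT (SD, n = 3 each). Gnai1, the neural member of the trio, averaged 5.85 ± 0.75 FPKM in cKO and 7.003 ± 0.61 FPKM in WT, with overlapping groups and a log2 fold change of -0.23 (limma unadjusted p = 0.0533, adjusted p = 0.413). Gnaz, the Gi/o member whose end above lacks the cysteine codon, averaged 3.57 and 3.76 FPKM in cKO and WT.

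As a share of the summed FPKM of the Gi/o genes, Gnao1 made up 13.5% ± 0.58 in cKO and 9.36% ± 0.55 in WT, and Gnai2 76.9% ± 0.82 in cKO and 80.5% ± 0.26 in WT (SD, n = 3 each). The summed level of the Gi/o genes was 504 ± 36.5 FPKM in cKO and 502 ± 2.20 FPKM in WT. The Gi/o total thus differed by less than its spread. Shares of 1 sum are bound together, so a larger share of Gnao1 by itself lowers that of Gnai2, and the level of Gnai2 did not pass the test.

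Gnas was the most abundant member. It encodes Gαs, which stimulates adenylyl cyclase, from a locus with imprinted alternative starts whose products the files' single value does not separate. Gnas was at 583, 553 and 609 FPKM in cKO replicates 1 to 3, against 535, 545 and 564 FPKM in WT replicates 1 to 3. The ranges overlapped, since cKO replicate 2 lay below WT replicate 3 (log2 fold change 0.085, limma adjusted p = 0.690, and -0.050 with the Y-linked covariate). Gnal, the Gαs relative of olfactory neurons and striatum, averaged 2.40 and 2.27 FPKM in cKO and WT. The Gs genes held 46.0% ± 2.47 of the summed Gα level in cKO and 44.6% ± 0.85 in WT (SD, n = 3 each).

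The remaining Gα genes in the tested set were expressed at intermediate levels. Gna12 was at 68.2, 69.2 and 68.2 FPKM in cKO replicates 1 to 3, against 64.2, 64.5 and 65.5 FPKM in WT replicates 1 to 3. The groups did not overlap, but the step was small, at 1.06 times the WT mean (log2 fold change 0.080, 95% interval -0.031 to 0.19, limma adjusted p = 0.552). Of its exon bases 13.3% overlap Amz1 on the other strand, and whether counting used strand is not known here. Gna13, its partner, ranged from 43.4 to 52.5 FPKM in cKO and from 41.5 to 61.8 FPKM in WT, where replicate 2 was highest.

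Gna11 averaged 45.2 ± 1.11 FPKM in cKO and 44.8 ± 2.65 FPKM in WT, and Gnaq 21.3 ± 0.41 FPKM in cKO and 20.5 ± 0.95 FPKM in WT (SD, n = 3 each). These encode the usual activators of phospholipase C β, and both differed by less than the WT spread. Among the untested members only Gna14, a further Gα of this class, had groups that did not overlap, at 0.24, 0.27 and 0.40 FPKM in cKO against 0.54, 0.50 and 0.69 FPKM in WT. It was singled out after its values were seen. Gnat1 and Gnat2, the transducins of rods and cones, did not exceed 0.28 FPKM in any library.

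**Figure D3:**
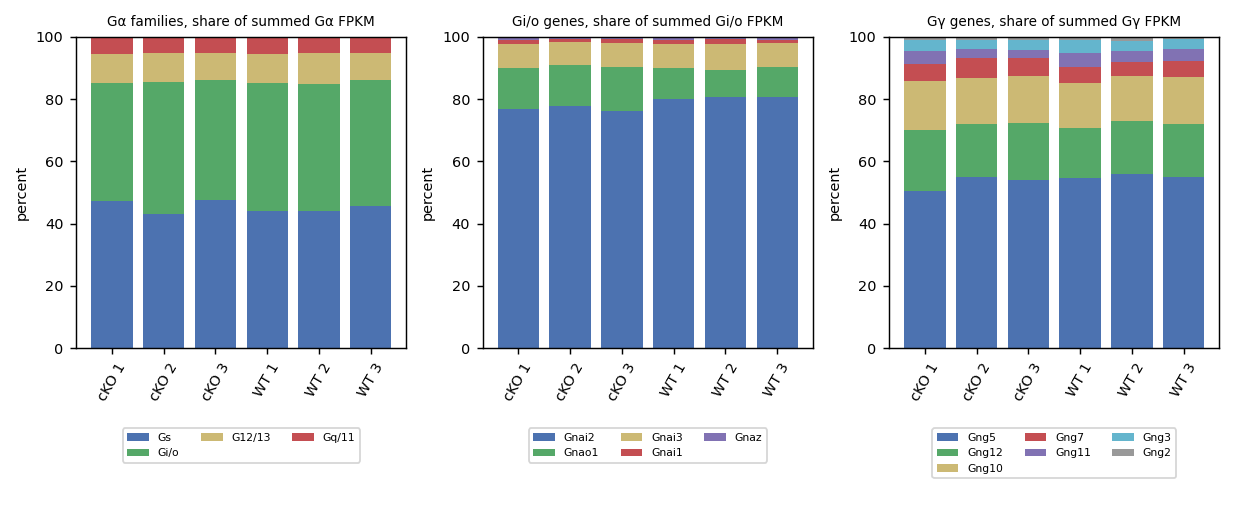
Stacked bars of the percent of summed FPKM per library, cKO libraries left and WT libraries right, for Gα families, for the Gi/o genes and for the Gγ genes; genes under 1 FPKM on average are not drawn in the Gi/o and Gγ panels. Gnao1 takes 13.5% of Gi/o transcripts in cKO and 9.36% in WT on average. In the first panel, Gs genes take 46.0% in cKO and 44.6% in WT on average, and Gi/o genes 39.6% and 40.7%. Both shares overlap between the groups, and single libraries range from 43.1% to 47.7% for Gs.

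Gβ transcripts came almost wholly from Gnb2 and Gnb1, which encode the widely expressed β subunits. Gnb2 was at 185, 194 and 206 FPKM in cKO replicates 1 to 3, against 205, 206 and 207 FPKM in WT replicates 1 to 3. Only cKO replicate 3 reached the WT range (log2 fold change -0.081, limma adjusted p = 0.649). Gnb1 was at 157, 159 and 158 FPKM in cKO replicates 1 to 3, against 152, 157 and 159 FPKM in WT replicates 1 to 3, a log2 fold change of 0.018 (limma adjusted p = 0.929), whose sign turned without WT replicate 1, against WT replicate 3 alone and with the Y-linked covariate. Gnb2 made up 51.5% of the summed Gβ FPKM in cKO and 53.3% in WT, and Gnb1 41.8% in cKO and 40.3% in WT. Gnb5, the β subunit that pairs with R7 RGS proteins in place of Gγ, averaged 24.5 ± 1.61 FPKM in cKO and 23.6 ± 1.28 FPKM in WT (SD, n = 3 each). Gnb4 and Gnb3, the retinal cone β subunit, averaged 0.90 and 0.12 FPKM in cKO and 1.03 and 0.13 FPKM in WT.

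Among the Gγ genes, Gng7 had higher and Gng11 lower means in the libraries labelled cKO, and neither passed the adjusted threshold. Gng7, known for cAMP signalling in striatum, was at 15.2, 17.5 and 16.1 FPKM in cKO replicates 1 to 3, against 14.5, 13.6 and 14.4 FPKM in WT replicates 1 to 3. Its groups did not overlap, with cKO replicate 2 highest (log2 fold change 0.19, 95% interval 0.029 to 0.34; limma unadjusted p = 0.0255, adjusted p = 0.333).

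Gng11, the farnesylated Gγ, was at 11.2, 8.14 and 6.63 FPKM in cKO replicates 1 to 3, against 12.5, 10.2 and 11.1 FPKM in WT replicates 1 to 3. Replicate 1 of cKO lay within the WT range and the other 2 lay below it (log2 fold change -0.37, 95% interval -0.73 to -0.0076; limma unadjusted p = 0.0463, adjusted p = 0.397). Without cKO replicate 1 the log2 fold change was -0.55 (limma adjusted p = 0.234), and without cKO replicate 3 it was -0.21 (limma adjusted p = 0.660). Gng11 is widely used as an endothelial transcript, and the 4 endothelial markers in the table summed to 0.77 to 1.15 FPKM in cKO and 1.19 to 1.65 FPKM in WT, with each marker under 1 FPKM on average. The part of such cells in the difference was not tested.

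The most abundant Gγ genes differed by little. Gng5, a ubiquitous Gγ, was at 138, 154 and 149 FPKM in cKO replicates 1 to 3, against 152, 167 and 157 FPKM in WT replicates 1 to 3, with a log2 fold change of -0.11 (limma adjusted p = 0.542), and -0.15 to -0.044 over the alternatives. It held 53.1% of Gγ transcripts in cKO and 55.2% in WT. Gng12, another widely expressed Gγ, was at 53.9, 48.1 and 50.3 FPKM in cKO replicates 1 to 3, against 45.0, 51.5 and 48.7 FPKM in WT replicates 1 to 3. Gng10 was at 42.6, 42.0 and 41.7 FPKM in cKO replicates 1 to 3, against 39.5, 42.9 and 43.2 FPKM in WT replicates 1 to 3, and it shares 946 of its exon bases with an overlapping gene model on the same strand, Gm20503. The groups of Gng12 and Gng10 overlapped, and the sign of Gng10 (log2 fold change 0.0094) turned without WT replicate 1, against WT replicate 3 alone and with the Y-linked covariate. The neuronal Gγ genes Gng3 and Gng2 averaged 9.13 and 2.29 FPKM in cKO and 10.3 and 2.55 FPKM in WT, and Gng4 and Gng8 stayed under 0.5 FPKM in every library. On the other strand, Bscl2 overlaps 24.2% of the exon bases of Gng3, and the gene model Gm48283 20.4% of those of Gng2. Whether counting used strand is not known, so these levels may include reads of the overlapping genes.

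**Figure D4:**
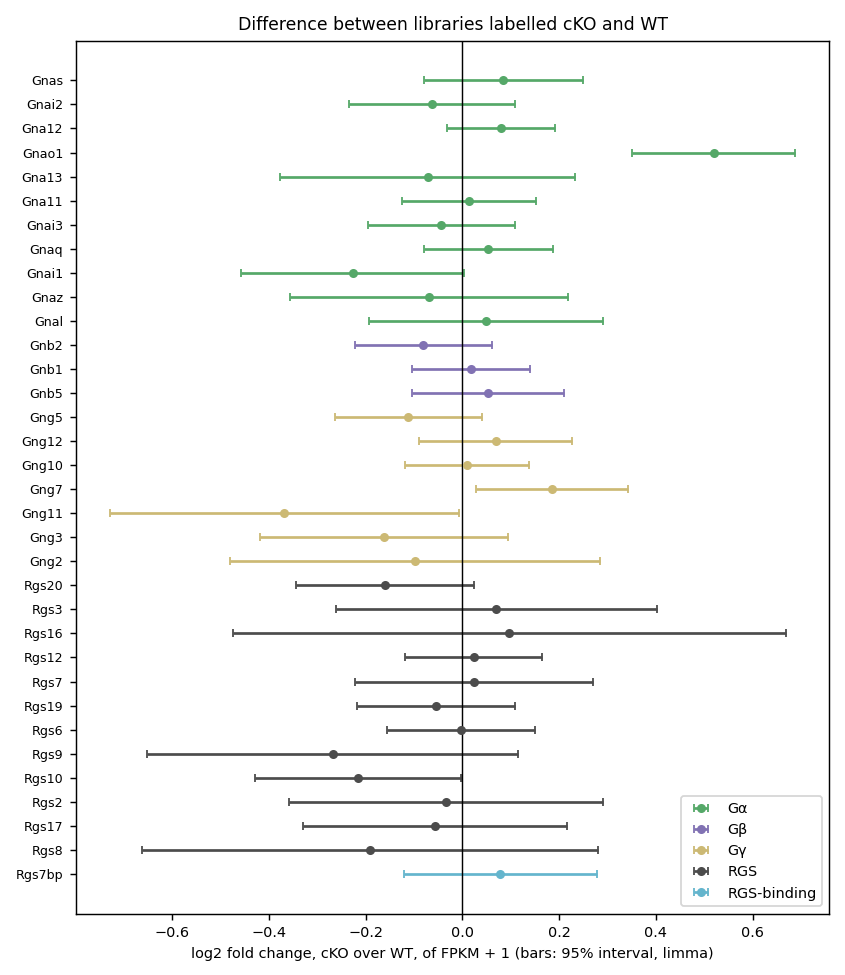
Log2 fold change of cKO over WT on the log2(FPKM + 1) scale with its 95% interval (limma) for the 34 tested members, coloured by role; the vertical line marks no difference. The interval of Gnao1 lies farthest from 0, those of Gng7, Gng11 and Rgs10 end close to it, and those of the other 30 members cross it.

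RGS transcripts were led by Rgs20, an RGS of the RZ subfamily with a preference for Gαz. It was at 34.0, 42.4 and 36.5 FPKM in cKO replicates 1 to 3, against 43.0, 41.7 and 41.2 FPKM in WT replicates 1 to 3. Replicate 2 of cKO lay within the WT range and the other 2 lay below it (log2 fold change -0.16, 95% interval -0.34 to 0.023, limma adjusted p = 0.466). The log2 fold change was -0.092 without cKO replicate 1, -0.25 without cKO replicate 2 and -0.0064 with the Y-linked covariate (limma adjusted p = 0.664, 0.289 and 0.999). Rgs20 exceeded Gnaz in mean FPKM, at 37.6 against 3.57 FPKM in cKO and 42.0 against 3.76 FPKM in WT. Rgs19 and Rgs17, its subfamily relatives, averaged 8.07 and 1.15 FPKM in cKO and 8.41 and 1.25 FPKM in WT. All 3 RZ genes had negative log2 fold changes, none with an unadjusted p under 0.05.

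Rgs10, a small RGS protein known from microglia, was at 3.35, 2.70 and 3.08 FPKM in cKO replicates 1 to 3, against 3.53, 3.97 and 3.57 FPKM in WT replicates 1 to 3. The groups did not overlap, with cKO replicate 1 close to the lowest WT library (log2 fold change -0.22, 95% interval -0.43 to -0.0025; limma unadjusted p = 0.0479, adjusted p = 0.402). The 8 microglial markers summed to 6.76 to 16.1 FPKM in cKO and 11.6 to 13.4 FPKM in WT, and 5 of them, P2ry12, Tmem119, Csf1r, Aif1 and Ptprc, averaged under 1 FPKM. Their part in the difference was not tested. Rgs12, a large multidomain relative, averaged 10.9 ± 0.46 FPKM in cKO and 10.7 ± 0.23 FPKM in WT (SD, n = 3 each).

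The R4 genes, which encode short RGS proteins and include early response genes, varied widely within groups. Rgs16 was at 14.1, 12.5 and 17.4 FPKM in cKO replicates 1 to 3, against 17.0, 8.20 and 17.6 FPKM in WT replicates 1 to 3. Its log2 fold change was 0.097 with all libraries (limma adjusted p = 0.917), -0.23 without WT replicate 2 (limma adjusted p = 0.655) and -0.023 without cKO replicate 3. Rgs3 was at 18.4, 14.8 and 17.8 FPKM in cKO replicates 1 to 3, against 15.8, 13.01 and 20.2 FPKM in WT replicates 1 to 3, and its log2 fold change of 0.070 was -0.073 without WT replicate 2. Both genes were lowest in replicate 2 of either group. Rgs2, a selective brake on Gq, averaged 1.71 ± 0.052 FPKM in cKO and 1.81 ± 0.57 FPKM in WT, and Rgs8 1.00 ± 0.34 FPKM in cKO and 1.31 ± 0.56 FPKM in WT (SD, n = 3 each). Rgs4 and Rgs5, the second a pericyte transcript, averaged 0.40 and 0.13 FPKM in cKO and 0.49 and 0.16 FPKM in WT.

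The R7 genes encode RGS proteins that are stable only with Gnb5 and that the anchor protein Rgs7bp holds at the membrane. Rgs7 averaged 9.80 ± 0.91 FPKM in cKO and 9.66 ± 1.43 FPKM in WT, Rgs6 6.34 ± 0.24 FPKM in cKO and 6.35 ± 0.015 FPKM in WT, and Rgs7bp 8.46 ± 1.00 FPKM in cKO and 7.92 ± 0.16 FPKM in WT (SD, n = 3 each). The groups of all 3 genes overlapped. Rgs9, the R7 member of striatum and retina, was at 3.65, 3.14 and 2.52 FPKM in cKO replicates 1 to 3, against 3.36, 5.34 and 3.28 FPKM in WT replicates 1 to 3, and WT replicate 2 stood above the rest (log2 fold change -0.27, limma adjusted p = 0.562). Rgs11 and Rgs9bp, the photoreceptor anchor of Rgs9, averaged 0.55 and 0.043 FPKM in cKO and 0.63 and 0.077 FPKM in WT, and Rgs22 did not exceed 0.32 FPKM.

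**Figure D5:**
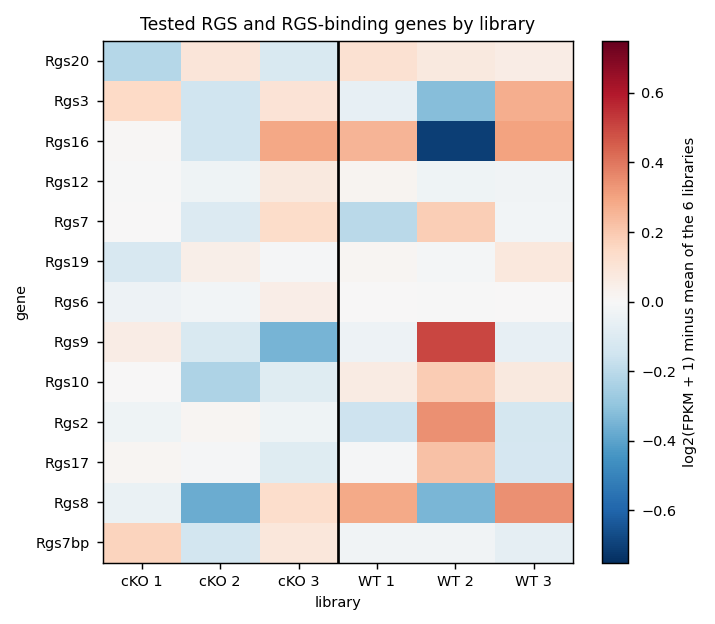
Heat map of log2(FPKM + 1) minus the mean of the 6 libraries for the 13 tested RGS and RGS-binding genes, with cKO libraries left of the black line and WT libraries right of it. The strongest cells lie in WT replicate 2, at -0.71 for Rgs16 and 0.50 for Rgs9.

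The genes that act before and after the G proteins held few differences as well. Of 106 tested genes in 9 lists of receptors, effectors, chaperones and modifying enzymes, none passed the adjusted threshold, and 3 with positive and 6 with negative log2 fold changes had an unadjusted p under 0.05, 8.49% against 12.3% of all tested genes. Their median log2 fold change was -0.014. The lists were written from general knowledge, with earlier results of these data known.

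Among cAMP genes, 17 tested, Prkar1b, a neural regulatory subunit of protein kinase A, averaged 10.2 ± 0.69 FPKM in cKO and 7.55 ± 0.63 FPKM in WT (log2 fold change 0.39, limma adjusted p = 0.186). Pde4b, which degrades cAMP, averaged 24.3 ± 1.84 FPKM in cKO and 28.9 ± 2.34 FPKM in WT (log2 fold change -0.24, limma adjusted p = 0.294). Both had groups that did not overlap. Such genes made up 23.5% of the 17, with 2 above and 2 below WT, against 17.2% of all tested genes. A limma unadjusted p under 0.05 was found for 17.6% of the 17, against 12.3% of all tested genes. Pde10a, a further phosphodiesterase, averaged 2.18 ± 0.27 FPKM in cKO and 3.26 ± 0.91 FPKM in WT, with overlapping groups (log2 fold change -0.40, limma adjusted p = 0.346). The median log2 fold change of the cAMP list was -0.10, beside -0.015 for all tested genes. None of the 7 tested adenylyl cyclases and none of the 7 tested receptor kinases and arrestins had an unadjusted p under 0.05. Adcy6 averaged 12.2 FPKM in both groups and was the most abundant cyclase, and Grk2 averaged 19.2 FPKM in cKO and 18.7 FPKM in WT.

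Among 11 tested direct effectors, Prex2, a Rac exchange factor activated by Gβγ, averaged 2.29 ± 0.18 FPKM in cKO and 1.57 ± 0.22 FPKM in WT, and Plcb3, a phospholipase C β, 20.3 ± 0.20 FPKM in cKO and 23.9 ± 2.08 FPKM in WT (log2 fold changes 0.36 and -0.22, limma adjusted p = 0.244 and 0.283). Among 26 tested receptors, the adhesion receptor Adgrb1 averaged 27.6 ± 1.15 FPKM in cKO and 22.6 ± 1.81 FPKM in WT (log2 fold change 0.27, limma adjusted p = 0.235). Gpr37 averaged 6.34 ± 0.97 FPKM in cKO and 7.77 ± 0.88 FPKM in WT, with overlapping groups (log2 fold change -0.26, limma adjusted p = 0.406). Among 19 tested chaperones and regulators, Cct4, a subunit of the chaperonin that folds Gβ, averaged 59.4 ± 3.72 FPKM in cKO and 67.6 ± 4.04 FPKM in WT (log2 fold change -0.19, limma adjusted p = 0.333). Tcp1, a further subunit, averaged 101.5 ± 4.8 FPKM in cKO and 111.3 ± 2.21 FPKM in WT (log2 fold change -0.13, limma adjusted p = 0.402). These 2 had a limma unadjusted p under 0.05 (10.5% of the list, against 12.3% of all tested genes). None of the 12 tested lipid-modifying enzymes had an unadjusted p under 0.05, and Fnta, the α subunit shared by the farnesyl and geranylgeranyl transferases, averaged 44.0 ± 2.14 FPKM in cKO and 41.2 ± 1.68 FPKM in WT (SD, n = 3 each throughout).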

How the data were processed

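RNA of 6 mouse neurosphere libraries, 3 labelled cKO and 3 labelled WT, was measured by sequencing. The deposited values are FPKM with 2 decimals, 1 column per library, per the file headers. The submitters' processing notes name Bowtie2 and GRCm38 (mm10), while counter, annotation, strandedness and filters are not known here. Low values of genes with 1 transcript of 300 to 1500 bases were searched for steps of 1 fragment between depths of 10000000 and 30000000 fragments. At the best depth 38.0% to 56.6% of values were whole within 0.1 fragment, so reads could not be recovered and count models were not used.

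Members and gene lists were chosen with earlier results of these data known. Of 14327 genes, 11596 that averaged 1 FPKM or more were tested as log2(FPKM + 1) with limma 3.58.1 in R 4.3.3 (eBayes with an intensity trend). A fold change on this scale understates that of low genes. The fit was tested on simulated data. All 46 members matched RefSeq (GRCm38.p6) by gene identifier and GENCODE M21 by symbol, and exons of 17 overlap another gene model. Values are given in each library for members with an unadjusted p under 0.05, with non-overlapping groups, or highest in their class. Up to 3 genes of lowest p per pathway list, and other members, are given as means or ranges. Rgs9, Gna14, Adcy6 and the marker genes Gjb6, Sparcl1, Gfap, Tubb3, Mog, Mbp, Pdgfra, Cspg4 and Rarres2 were given outside this rule, after their values were seen. Whether replicate numbers pair the libraries is not known. Deviations of same-numbered libraries correlated at -0.043, 0.31 and 0.26, and those of differently numbered libraries at -0.40 to 0.17. The main fit treated the libraries as unpaired. No 2 libraries shared more than 0.457% of values, so none was a copy of another. That share cannot tell separate cultures from technical repeats of 1 culture. Each library was counted as 1 replicate. Alternatives were other pseudocounts, filters, scalings, variance models, library weights, a replicate block, left-out libraries, a Y-linked covariate and another threshold. Plots were made in Python 3.11.15 with matplotlib 3.10.9.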

Additional observations from a re-analysis of the deposited data

How the results depend on the processing

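No member passed under any alternative tried except library weights, where 1 did, Gnao1. Of the 15 members named in full plus Slc22a17, 271 of the recomputed log2 fold changes kept their sign and their side of the threshold, 1 passed (Gnao1) and 15 changed sign, none of these with an adjusted p under 0.05 in limma. Over all genes the count past the threshold, 3 in the main comparison, was 0 with no filter, with quantile normalization, without the intensity trend, against WT replicate 3 alone and with the Y-linked covariate, 129 with library weights, and 0 to 10 when single libraries were left out. With the replicate number as a block it was 22, and no member was among them (Gnao1, adjusted p = 0.0522). Whether the numbers pair the libraries is not known. Sign changes were -0.050 for Gnas with the Y-linked covariate. With single libraries left out, Gnb1 ranged from -0.00089 (without WT replicate 1) to 0.033, Gng10 from -0.031 (without WT replicate 1) to 0.032, Rgs3 from -0.073 (without WT replicate 2) to 0.23, and Rgs16 from -0.23 (without WT replicate 2) to 0.27, with -0.023 without cKO replicate 3. Against WT replicate 3 alone they stood at -0.012, -0.035, -0.24 and -0.26 in this order, and with the covariate at -0.042, -0.087, -0.70 and -0.79. With library weights Rgs16 stood at -0.095. The cause was not tested. Scaling moved the median of all genes by under 0.1 on the log2 scale. The depth behind single values is unknown, which limits members near 1 FPKM most.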

Other observations

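For each tested member, the library farthest from the median of the 6 libraries on the log2(FPKM + 1) scale was recorded. Replicate 2 of WT was the farthest for 10 of 34 members (29.4%), against 26.5% of all tested genes, and replicate 3 of WT for 1 member (2.94%), against 11.5%. Replicate 1 of WT was the farthest for 5 members (14.7%, against 8.33%). The 10 members farthest in WT replicate 2 were Rgs2, Rgs3, Rgs7, Rgs9, Rgs16, Rgs17, Gna11, Gna13, Gnai3 and Gng2, of which 6 are RGS genes, from 12 RGS genes tested. Among the libraries labelled cKO, replicate 1 was the farthest for 8 members (23.5%, against 22.2% of all tested genes). Replicate 2 was so for 5 (14.7%, against 18.4%) and replicate 3 for 5 (14.7%, against 13.1%). These counts were made after the values had been seen and carry no test.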
